A study of Mus musculus with 11 samples.

Results

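Chemokine and cytokine transcripts of CD8+ Tregs were followed from young to middle-aged mice through 9 genes picked by name: Ccl3, Ccl4, Ccl5, Xcl1, Ifng, Tnf, Lta, Ltb and Il16. These were 9 of the 54532 genes in the deposited count table, and all 9 were among the 13129 genes with enough counts to be tested. The cells were CD8+CD44+Ly49+CD122+ T cells sorted by flow cytometry from the spleens of wild-type (WT) mice, and bulk RNA sequencing was performed on them without any stimulation named in the labels. There were 6 libraries from mice of 2 to 3 months, called young here, with 3 from males and 3 from females. There were 5 libraries from mice of 10 to 12 months, labelled Old and called middle-aged here, with 2 from males and 3 from females. These ages are those of the series design. The study gives a single age for each group in its text on these cells, within or at the end of these ranges. The libraries are described as biologically independent replicates, and the number of mice behind each was not given in the sources used here.

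The proteins encoded by these genes are signals that activated lymphocytes send to other cells. CCL3, CCL4 and CCL5 attract T cells, monocytes and other leukocytes, XCL1 attracts the dendritic cells that cross-present antigen to CD8+ T cells, and IFN-γ activates macrophages. TNF and the lymphotoxins belong to a family that drives inflammation and the organisation of lymphoid tissue. Memory CD8+ T cells hold some of these transcripts, Ccl5 above all, ready before any stimulus, while Ifng and Tnf are mostly made in short bursts after stimulation.

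The libraries held 6135736 to 24394532 counts, and Pearson correlations of log2 CPM (read counts scaled to library size) between libraries ran from 0.78 to 0.98. Markers of the sorting gate were present: the 8 genes of that list (Cd3e, Cd3d, Cd3g, Cd8a, Cd8b1, Cd44, Il2rb and Ikzf2) were all tested, and their summed level was 6703 to 11455 CPM in the young and 6650 to 10517 CPM in the middle-aged. A pair of libraries stood apart in genes that bear on the results. Middle-aged female 2 had 1604 CPM of the 5 neutrophil genes (S100a8, S100a9, Retnlg, Ly6g and Elane) against 0 to 83.7 CPM in the other 10, and 1196 CPM of the 7 macrophage and monocyte genes against 31.6 to 324 CPM. Young male 1, the shallowest library, had 4200 CPM of the 11 immediate early genes, which are switched on within minutes of stimulation. Middle-aged female 2 had 2946 CPM of them, and the other 9 libraries had 587 to 1966 CPM.

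Scaled by gene length, the 9 transcripts covered a wide range of levels. Ccl5 was the most abundant, with a mean of 1933 ± 1153 CPM per kilobase (SD, n = 11), and ranked 13 among the 13129 tested genes. Ltb followed at 1172 ± 661 CPM per kilobase (rank 36), although Ccl5 exceeded it in only 9 of 11 libraries. Xcl1 averaged 224 ± 91.0 and Ccl4 110 ± 64.9 CPM per kilobase. The order of these 4 was steadier further down, since Ltb lay above Xcl1 in 11 libraries and Xcl1 above Ccl4 in 10. Il16 averaged 33.7 ± 8.20 and Ccl3 22.2 ± 20.6 CPM per kilobase, with Il16 the higher in only 9 of 11 libraries. At the lower end, Lta (9.20 ± 1.90), Tnf (8.08 ± 4.75) and Ifng (7.09 ± 8.20 CPM per kilobase) could not be put in order, because Lta exceeded Tnf in 7 libraries, Tnf exceeded Ifng in 9, and their spreads covered the gaps.

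**Figure D1:**
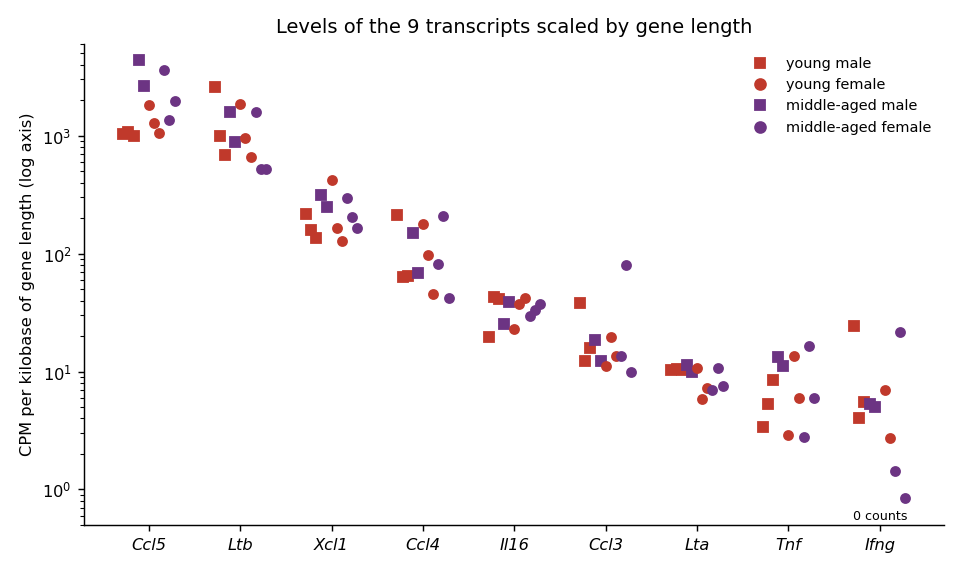
Level of each transcript in each of the 11 libraries, in CPM per kilobase of gene length on a log axis, with genes ordered by their mean and points coloured by age (squares males, circles females). Ccl5 and Ltb had the highest means (1933 and 1172 CPM per kilobase), Lta, Tnf and Ifng overlapped at the bottom, and Ifng had 0 counts in young female 1, marked on the axis.

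To ask how age affected these transcripts, each was compared between the 5 middle-aged and 6 young libraries in a fit over all tested genes with sex as a term (edgeR quasi-likelihood test, Benjamini-Hochberg adjustment over 13129 genes). None of the 9 passed an adjusted p of 0.05, where 3 of all genes did (0.0229%). At an unadjusted p under 0.05 there was 1 of the 9, Ccl5, against 393 of all genes (2.99%). DESeq2, which gave no p for Ccl3, called 1 of the other 8, and limma voom called 1 of the 9, again Ccl5 in both. Over all genes they called 112 of 13023 (0.86%) and 138 of 13129 (1.05%). The ages overlapped for all 9 genes over the 11 libraries, where they did not for 1.32% of all tested genes. The fold change was positive for 7 genes and negative for Ltb and Il16. The median log2 fold change over the 9 was 0.28, beside 0.0028 over all tested genes, of which 50.4% were positive. In such bulk samples, a smaller share of cells making a transcript and less of it per cell cannot be told apart.

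Among the chemokines of the CC family, Ccl5 (chr11:83525778-83530518, minus strand, GRCm38 as for all genes here) carried the clearest age difference of the 9. Young libraries held 964 to 1746 CPM, with a median of 1017 CPM. Middle-aged males 1 and 2 held 4188 and 2543 CPM, and middle-aged females 1, 2 and 3 held 3499, 1311 and 1892 CPM. All 5 middle-aged libraries therefore lay above the young median, and the share of all tested genes with such a split was not counted. The groups still overlapped, because middle-aged female 2 fell below young female 1, the highest young library. Without middle-aged female 2 the groups did not overlap for Ccl5, which was true of 267 of all tested genes (2.03%).

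Ccl5 averaged 1163 ± 302 CPM over the young (SD, n = 6) and 2687 ± 1168 CPM over the middle-aged libraries (n = 5). The fitted difference was 1.21 on the log2 scale (standard error 0.31, 95% interval 0.52 to 1.89), a 2.31-fold higher level, with an unadjusted p of 0.00241, rank 67 of 13129, and an adjusted p of 0.457 (edgeR). An exact two-sided permutation test over all 462 assignments of the libraries to the ages gave p = 0.00866 for its mean log2 CPM. The call depended on the tool: the adjusted p was 0.0381 with DESeq2 and 0.0140 with limma voom. The difference was positive in each sex and within each replicate number. It was 1.76 in males alone and 0.76 in females alone, and the test of that difference between the sexes gave -1.01 (standard error 0.58, unadjusted p = 0.108, edgeR). Means of log2 CPM differed by 1.54, 0.69 and 0.94 within replicate numbers 1, 2 and 3, and the middle-aged library was the higher in 5 of 5 couples of the same sex and number. These couples are a description, since the numbers were not shown to pair the libraries. The share of all genes with such couples was not counted.

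Ccl3 and Ccl4, which encode MIP-1α and MIP-1β, were highest in other libraries than Ccl5. The 3 genes lie on chromosome 11, with Ccl5 117326 bases from Ccl3, and Ccl3 13229 bases from Ccl4. Ccl3 (chr11:83647844-83649355, minus strand) ranged from 8.47 to 29.1 CPM in young libraries, with a median of 11.2 CPM. It was 14.3 and 9.37 CPM in middle-aged males 1 and 2, and 10.4, 61.0 and 7.57 CPM in middle-aged females 1, 2 and 3. Young male 1 and middle-aged female 2 were thus the highest, the next was young female 2 at 14.9 CPM, and the remaining values of both ages overlapped. The fitted difference was 0.49 (standard error 0.63, 95% interval -0.89 to 1.88, adjusted p = 1.00, edgeR), and it turned to -0.41 without middle-aged female 2.

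Ccl4 (chr11:83662584-83664683, plus strand) was more abundant per kilobase than Ccl3, with a mean of 110 CPM per kilobase where Ccl3 had 22.2. Young libraries held 29.7 to 139 CPM, with a median of 53.6 CPM. In middle-aged males 1 and 2 it was 99.5 and 45.3 CPM, and middle-aged females 1, 2 and 3 held 53.6, 138 and 27.8 CPM. The ages overlapped over almost their whole range, with means of 72.7 ± 45.4 and 72.7 ± 44.9 CPM. The difference was 0.01 (standard error 0.50, 95% interval -1.09 to 1.11, adjusted p = 1.00, edgeR), so a change of either direction by as much as 1.09 on the log2 scale was within the interval. Without middle-aged female 2 it was -0.41.

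**Figure D2:**
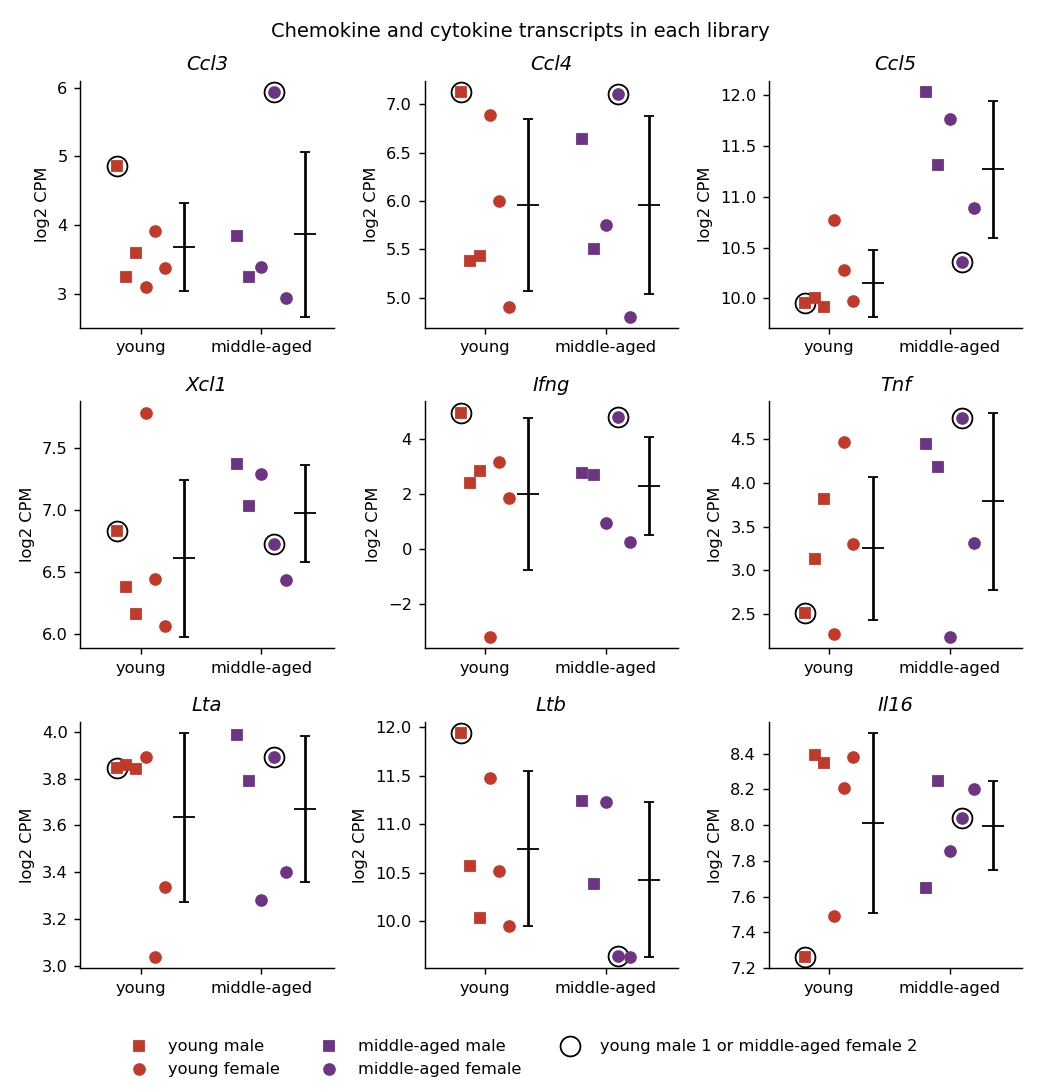
Level of each transcript in each library, as log2 CPM (prior count 2), with young libraries on the left and middle-aged on the right of each panel, squares for males and circles for females, and the mean with its SD as a black bar. Rings mark young male 1 and middle-aged female 2, the highest pair in the Ccl3, Ccl4 and Ifng panels. All 5 middle-aged points lie above the young median in the Ccl5 (1017 CPM) and Xcl1 (84.8 CPM) panels. In the Il16 panel they all lie below it (310 CPM).

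Xcl1 (chr1:164931644-164935527, minus strand), which encodes lymphotactin, was spread widely among young libraries. They held 66.8 to 221 CPM, with a median of 84.8 CPM. Middle-aged males 1 and 2 held 166 and 131 CPM, and middle-aged females 1, 2 and 3 held 156, 106 and 86.2 CPM. All 5 middle-aged libraries were above the young median, without a count of the share of all genes as for Ccl5. The highest library of all was nevertheless young female 1. The difference was 0.28 (standard error 0.34, 95% interval -0.46 to 1.01, adjusted p = 1.00, edgeR). Without young female 1 it was 0.67, with an unadjusted p of 0.0146 and an adjusted p of 0.981 (edgeR), and the exact permutation p was 0.0476. That set keeps both middle-aged libraries numbered 1, where Xcl1 ran higher (114 to 221 CPM), but of the young ones only young male 1. Within replicate numbers 1, 2 and 3 of the full set, means of log2 CPM differed by 0.02, 0.47 and 0.32. In females alone the sign turned, to -0.08.

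Ifng (chr10:118441046-118445892, plus strand) was the least steady of the 9, with a biological coefficient of variation of 1.15 where genes of its abundance had a trend of 0.67. Young libraries held 0 to 31.4 CPM, with a median of 6.23 CPM. The 0 was young female 1, in which 0 counts allows a level of up to 0.417 CPM. The middle-aged males held 6.84 and 6.49 CPM in libraries 1 and 2, and middle-aged females 1, 2 and 3 held 1.85, 28.3 and 1.09 CPM. The highest libraries were again young male 1 and middle-aged female 2, with 1 from each age. The difference of 0.29 (standard error 1.18, 95% interval -2.29 to 2.87, adjusted p = 1.00, edgeR) left its direction unsettled, and it was -1.32 without middle-aged female 2. The gene AC153498.1 overlaps Ifng on the same strand and held up to 47.0% as many counts, so reads of this locus could have been split between them.

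Ccl3, Ccl4 and Ifng therefore shared their highest pair of libraries, young male 1 and middle-aged female 2, which also had the highest summed immediate early genes (4200 and 2946 CPM). For Ccl4, young female 1 was close behind this pair at 118 CPM. That library had 764 CPM of the immediate early genes and 0 counts of Ifng. Over the 11 libraries, Pearson's r of log2 CPM was 0.71 between Ccl3 and Ifng and 0.69 between Ccl3 and Ccl4, given as a description, since the points share library depth and the same outlying libraries. The neutrophil and macrophage genes were highest in middle-aged female 2, whereas young male 1 had 26.9 and 94.5 CPM of them. The part of these gene groups in the levels of Ccl3, Ccl4 and Ifng was not tested.

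Promoter sequences are shown for Ccl3 and Ifng because these genes were highest in the same libraries. They run from 250 bases before to 50 bases after the RefSeq start site (GRCm38.p6), which was given for 7 of the 9 genes and not for Ccl4 or Ccl5. Each was searched on both strands for short motifs of factors that drive cytokine genes, and capitals mark the matches: NFAT (GGAAAA, in 23.4% of all 32851 promoters), NF-kB (GGAANNNCC, 18.5%), AP-1 (TGANTCA, 7.8%), T-box (GGTGTGA, 4.0%) and Runx (TGTGGT, 16.8%). The Ccl3 promoter (chr11:83649329-83649628, minus strand) held a Runx match at -122 and an NFAT match on the reverse strand at -60 from the start site. The Ifng promoter (chr10:118440796-118441095, plus strand) held none of these letters. No matches to different motifs overlapped in the printed promoters. A match describes the sequence only, and both are written 5′ to 3′ on the strand of the gene.
Ccl3: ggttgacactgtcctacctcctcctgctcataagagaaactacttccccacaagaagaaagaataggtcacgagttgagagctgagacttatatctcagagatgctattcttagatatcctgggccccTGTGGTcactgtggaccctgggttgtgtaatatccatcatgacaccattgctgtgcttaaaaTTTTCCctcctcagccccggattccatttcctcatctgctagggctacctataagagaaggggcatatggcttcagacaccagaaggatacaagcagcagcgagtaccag
Ifng: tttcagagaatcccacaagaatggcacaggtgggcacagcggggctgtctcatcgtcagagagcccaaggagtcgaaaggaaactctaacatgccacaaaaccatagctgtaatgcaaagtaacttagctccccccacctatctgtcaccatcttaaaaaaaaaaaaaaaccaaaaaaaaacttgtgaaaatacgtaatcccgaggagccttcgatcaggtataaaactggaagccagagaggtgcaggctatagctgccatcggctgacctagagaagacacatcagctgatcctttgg

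TNF and the lymphotoxins α and β are encoded side by side on chromosome 17, within 10913 bases from Ltb to Lta, with Tnf between them. Each of the 3 transcripts nevertheless had its highest level in another library. Tnf (chr17:35199381-35202007, minus strand) ranged from 4.72 to 22.0 CPM in young libraries, with a median of 9.20 CPM. It was 21.7 and 18.1 CPM in middle-aged males 1 and 2, and 4.60, 26.7 and 9.85 CPM in middle-aged females 1, 2 and 3. Middle-aged female 2 was the highest library, but young male 1, which was high in Ccl3 and Ifng, held only 5.60 CPM. The difference was 0.58 (standard error 0.52, 95% interval -0.57 to 1.72, adjusted p = 1.00, edgeR), and it was 0.22 without middle-aged female 2 and 0.99 without young female 2. It was 1.07 in males alone and 0.18 in females alone.

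Lta (chr17:35203165-35205351, minus strand) had the narrowest range of the 9, with a highest library 1.94 times the lowest. Young libraries held 8.11 to 14.7 CPM, with a median of 14.2 CPM. Middle-aged males 1 and 2 held 15.7 and 13.7 CPM, and middle-aged females 1, 2 and 3 held 9.63, 14.7 and 10.5 CPM. The ages overlapped, with middle-aged male 1 at the top and young female 2 at the bottom. Its biological coefficient of variation was 0.37, where the trend for genes of its abundance was 0.61. The difference was 0.07 (standard error 0.29, 95% interval -0.57 to 0.70, adjusted p = 1.00, edgeR).

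Ltb (chr17:35194439-35196320, plus strand) was abundant in every library. Young libraries held 991 to 3935 CPM, with a median of 1489 CPM. Middle-aged males 1 and 2 held 2418 and 1339 CPM, and middle-aged females 1, 2 and 3 held 2401, 798 and 793 CPM. The highest libraries were young male 1 and young female 1, and the lowest were middle-aged females 2 and 3. The difference was -0.32 (standard error 0.44, 95% interval -1.29 to 0.65, adjusted p = 1.00, edgeR). It came to -0.02 without young male 1 and to -0.04 without young female 1, and over the libraries with more than 10000000 counts, which leave out both, it turned to 0.30. That set keeps both middle-aged libraries numbered 1 and no young one. Within replicate numbers 1, 2 and 3 the means of log2 CPM differed by -0.47, -0.53 and -0.36, and the middle-aged library was the lower in 5 of 5 couples of the same sex and number. As for Ccl5, the couples are a description only, without the share of all genes.

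Il16 (chr7:83642825-83745726, minus strand) encodes a precursor protein that is cleaved to release the CD4 ligand IL-16. Young libraries held 153 to 336 CPM, with a median of 310 CPM. Middle-aged males 1 and 2 held 200 and 303 CPM, and middle-aged females 1, 2 and 3 held 231, 263 and 294 CPM. All middle-aged libraries lay within the young range and below the young median, the reverse of Ccl5 and Xcl1. The lowest libraries were young male 1 and young female 1. The difference was -0.07 (standard error 0.26, 95% interval -0.64 to 0.50, adjusted p = 1.00, edgeR). Stard5, on the opposite strand, overlaps Il16 and held up to 13.9% as many counts, and whether reads were counted by strand was not given in the sources used here.

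**Figure D3:**
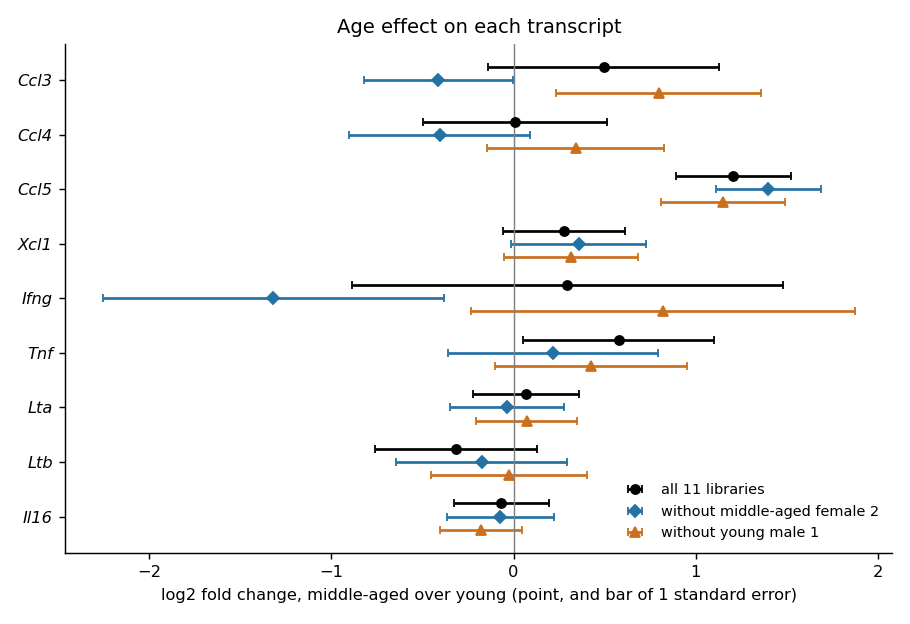
Age difference of each transcript on the log2 scale, middle-aged over young, with bars of 1 standard error, from all 11 libraries (black circles), without middle-aged female 2 (blue diamonds) and without young male 1 (orange triangles). Ccl5 stayed between 1.15 and 1.40 in these 3 fits, while Ccl3, Ccl4 and Ifng moved from 0.49, 0.01 and 0.29 to -0.41, -0.41 and -1.32 when middle-aged female 2 was left out.

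Ltb, Xcl1 and Il16 differed between the replicate numbers in the labels, which the labels do not tie to a day or batch. The 4 libraries numbered 1 held 2401 to 3935 CPM of Ltb. Those numbered 2 held 798 to 1514 CPM, and those numbered 3 held 793 to 1043 CPM, so that number 1 did not overlap the others. For Xcl1 the ranges were 114 to 221 CPM in number 1, 83.0 to 131 CPM in number 2 and 66.8 to 86.2 CPM in number 3. Il16 ran the other way, with 153 to 231 CPM in number 1, 263 to 336 CPM in number 2 and 294 to 334 CPM in number 3.

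A test of the replicate number, chosen after seeing the data and fitted with sex and age as terms, called 3452 of all tested genes (26.3%) and 3 of the 9 (edgeR). Relative to number 1, Ltb differed by -1.19 in number 2 and by -1.63 in number 3 on the log2 scale, with an adjusted p of 0.000214 (edgeR). Xcl1 differed by -0.70 and -1.12 (adjusted p = 0.0115) and Il16 by 0.65 and 0.74 (adjusted p = 0.0128). With so many genes called, these 3 stood in a pattern of the whole table. Ccl4 and Ccl5 had unadjusted p-values of 0.0249 and 0.0449 and adjusted ones of 0.0787 and 0.120 (edgeR), and Lta showed differences of only -0.10 and -0.17.

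The same contrast of replicate numbers moved with gene length over the table. The median difference of number 3 from number 1 was -0.95 for genes of up to 1000 bases, -0.74 for longer ones up to 2000 bases, 0.20 for those up to 5000 bases and 0.77 above 5000 bases. Xcl1, Ltb and Il16 have lengths of 523, 1516 and 7865 bases in the deposited table. Among members of up to 1000 bases, number 3 was lower than number 1 for each. The differences were -1.12 for Xcl1, -1.64 for Ccl4, -0.73 for Ccl5 and -0.63 for Ccl3. Members between 1000 and 2000 bases did not all move alike. There, number 3 differed from number 1 by -1.63 for Ltb and -0.88 for Ifng (1295 bases). For Lta (1383 bases) it differed by -0.17 and for Tnf (1639 bases) by 0.64. In the replicate-number test, Ccl3, Ifng, Lta and Tnf had unadjusted p-values of 0.405, 0.369, 0.878 and 0.139 (edgeR). Summed markers of some other cells differed between numbers 1 and 3 too. B cell genes were at 308 to 347 CPM in number 3 libraries, 108 to 153 CPM in number 1 and 156 to 362 CPM in number 2. CD4 T cell genes were at 16.2 to 26.2 CPM in number 3, 1.39 to 5.71 CPM in number 1 and 5.19 to 32.3 CPM in number 2. Dendritic cell genes were at 29.7 to 52.7 CPM in number 3, 4.88 to 14.6 CPM in number 1 and 14.4 to 61.9 CPM in number 2. The highest number 2 value of each of these lists was that of middle-aged female 2. Macrophage and monocyte genes overlapped, with 88.7 to 224 CPM in number 3 and 70.7 to 324 CPM in number 1. The part of gene length and of these transcripts in the levels of Ltb, Xcl1 and Il16 was not tested.

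**Figure D4:**
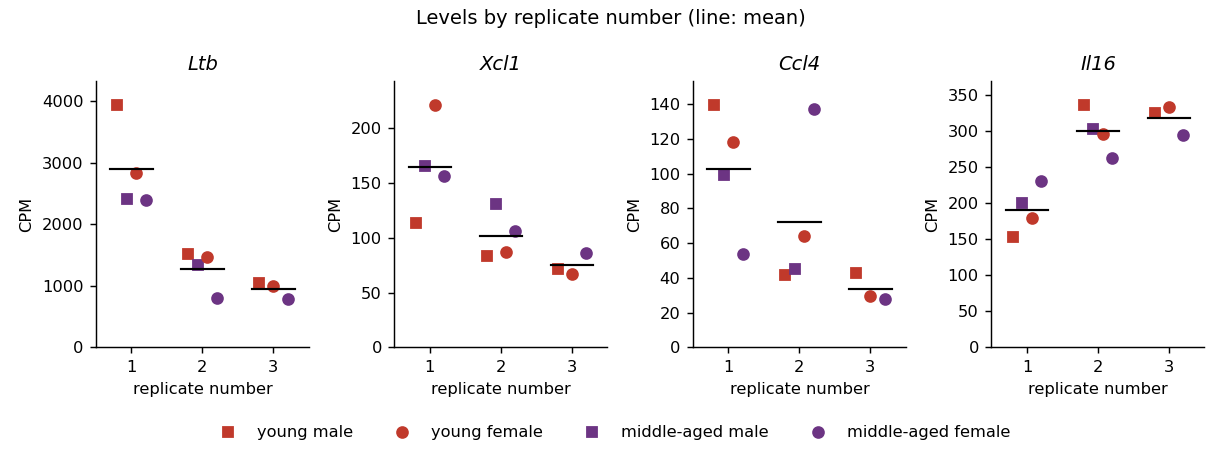
CPM of Ltb, Xcl1, Ccl4 and Il16 in each library, grouped by the replicate number in the labels, on axes that start at 0, with a line at each mean and points coloured by age (squares males, circles females). Number 1 libraries held the 4 highest Ltb values (2401 to 3935 CPM) and the 4 lowest Il16 values (153 to 231 CPM), with both ages and sexes among them.

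The promoters of Ltb and Xcl1 are printed because these genes were higher together in the libraries numbered 1, with r = 0.67 over the 11 libraries as a description. They come from the same RefSeq table, and capitals again mark matches to the motifs spelled out above. The Ltb promoter (chr17:35194257-35194556, plus strand) held an NF-kB match at -87. The Xcl1 promoter (chr1:164935473-164935772, minus strand) held a T-box match at -188 and a Runx match on the reverse strand at -227. Of the others, Tnf held an NF-kB match and a pair of NFAT matches, Lta held none, and the 3 starts listed for Il16 held AP-1, Runx and NF-kB matches, with 1 of these motifs at each.
Ltb: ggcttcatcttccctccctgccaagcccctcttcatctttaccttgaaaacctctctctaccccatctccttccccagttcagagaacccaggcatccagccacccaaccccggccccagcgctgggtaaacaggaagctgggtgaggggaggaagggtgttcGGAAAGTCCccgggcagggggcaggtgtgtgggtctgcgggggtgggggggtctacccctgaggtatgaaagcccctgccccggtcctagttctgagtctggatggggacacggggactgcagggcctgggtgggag
Xcl1: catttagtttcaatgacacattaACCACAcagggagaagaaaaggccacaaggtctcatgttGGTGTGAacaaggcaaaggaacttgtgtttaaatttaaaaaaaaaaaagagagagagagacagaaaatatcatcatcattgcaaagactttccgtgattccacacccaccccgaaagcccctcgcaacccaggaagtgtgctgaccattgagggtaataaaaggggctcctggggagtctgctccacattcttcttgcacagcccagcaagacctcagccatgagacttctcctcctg

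Sex made no detectable difference to the 9 genes. None passed an adjusted or unadjusted p of 0.05 in the same fit, where 5 of all genes passed the adjusted one (0.0381%, edgeR). DESeq2 called none of the 8 that it tested, and limma voom none of the 9. The lowest unadjusted p was 0.231, for Lta, at -0.37 in females relative to males (edgeR). The age difference did not differ detectably between the sexes either. For that interaction edgeR called 0 of 13129 genes at an adjusted p under 0.05 (0%) and 158 at an unadjusted p under 0.05 (1.2%), with none of the 9 among them, and DESeq2 called none of the 9. The smallest unadjusted p was 0.108, for Ccl5, and with 2 middle-aged males the standard error of these interactions was 0.55 to 2.19.

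Other secreted signals of T cells were read beside the 9 genes from a list of 27, of which 13 had enough counts to be tested. None passed an adjusted p of 0.05 (edgeR), and 3 had an unadjusted p under 0.05, all higher in middle-aged libraries. Of all tested genes, 2.99% were under that unadjusted threshold. Fasl, the death ligand that triggers apoptosis through Fas, averaged 42.7 ± 29.1 CPM in young libraries, whereas those of middle age averaged 124 ± 42.1 CPM. Its difference was 1.64 (standard error 0.43), with an edgeR quasi-likelihood p of 0.00232 and an adjusted p of 0.457. Tnfsf14, which encodes LIGHT, differed by 0.77 and the myeloid chemokine Ccl6 by 2.48 (edgeR unadjusted p = 0.0184 and 0.0299). The highest Ccl6 value, 49.2 CPM, was that of middle-aged female 2, with its 1604 CPM of neutrophil genes, and their part in it was not tested. Il3, Il5, Il9, Il13, Il17a, Il17f and Il22 had 0 counts in all 11 libraries, and Il10 had 3 counts in 1 library and 0 in the others. Xcr1, the receptor of XCL1, stayed at or below 4.04 CPM in every library.

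Factors that control cytokine genes showed no called change. All 24 transcription factors and RNA-binding proteins of that list were tested, and 0 passed an adjusted or an unadjusted p of 0.05 (edgeR). The smallest p-values were those of Hlx (0.0580) and Eomes (0.0743), and Eomes, a T-box factor of memory CD8+ T cells, averaged 164 ± 52.0 CPM at the young age, beside 254 ± 81.7 CPM at the middle age. None of the 7 genes for processing and storage of these proteins and none of the 10 tested immediate early genes had a p under 0.05 at either level (edgeR). Among the cell type lists, 4 of 7 NK cell genes and 3 of 5 tested erythroid and platelet genes were lower at an unadjusted p under 0.05 (edgeR). At that threshold, 2 of 3 tested neutrophil genes (S100a8 and S100a9) and 1 of 7 macrophage and monocyte genes (Lyz2) were higher. None passed an adjusted p of 0.05, and 2.99% of all tested genes were under the unadjusted one. The summed neutrophil genes were at 1604 CPM in middle-aged female 2 and at most 83.7 CPM in the other middle-aged libraries. Klre1 of the NK list (0.65), and Pf4 and Ppbp of the erythroid and platelet list, had positive differences. The summed NK genes had medians of 476 CPM in the young and 484 CPM in the middle-aged. The paper reports lower Klra4, of the NK list, as a change in the CD8+ Tregs, and the source of these transcripts was not tested. Of the macrophage and monocyte genes 4 had positive and 3 negative differences, such as -1.13 for C1qa and -0.73 for Itgam.

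**Figure D5:**
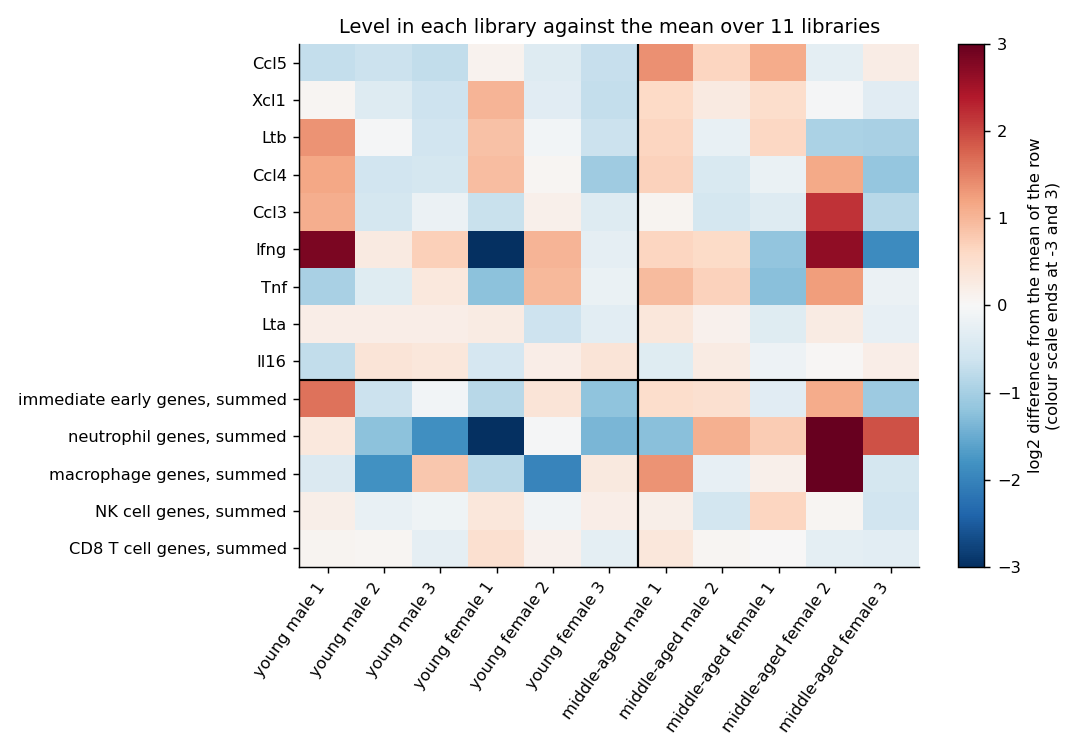
Level of each of the 9 transcripts and of 5 summed gene lists in each library, as the log2 difference from the mean over the 11 libraries (colour, ending at -3 and 3), with young libraries left of the line. Middle-aged female 2 and young male 1 were the highest pair for Ifng, Ccl3, Ccl4 and the immediate early genes, with young female 1 close behind for Ccl4. The neutrophil and macrophage rows were high in middle-aged female 2.

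Each of the 9 genes with at least 10 counts in every library, which left out Ifng, was finally set beside the other 10994 tested protein-coding genes. The measure was Pearson's r of log2 CPM over the 11 libraries, as a description of shared pattern. Ccl5 was most like Tspan31 (0.95), S100a6 (0.95) and Socs1 (0.93), the last an inhibitor of cytokine signalling. Ccl4 was most like Psmb9 (0.95), a subunit of the immunoproteasome, Nfkbia (0.94), the NF-kB inhibitor induced by NF-kB itself, and Hmcn2 (0.93). Ccl3 was most like the protease gene Ctsb (0.89).

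Genes that followed the replicate numbers had the closest partners. Ltb was most like Bphl (0.99), Alg5 (0.98) and Qtrt1 (0.98), Il16 like Sidt1, Dync1li1 and Wbp1l (0.98 each), and Xcl1 like Tmem107 (0.97), Cd52 (0.97) and Lgals1 (0.96). Lta had the loosest match, at 0.87 for Rest, and Tnf was most like Srsf2 (0.94). Between members, the lowest values were -0.83 for Ltb with Il16 and -0.79 for Ccl4 with Il16.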

How the data were processed

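Bulk RNA sequencing of FACS-sorted splenic CD8+ Tregs gave 11 libraries, prepared with a Takara SMARTer kit. The authors deposited whole-number counts per gene, and no further normalization was applied to them before deposit as far as the values show. The submitters' processing notes name kallisto and mm10, without versions or roles. The counting step, its strand setting and whether counts are rounded estimates were not given in the sources used here. Of the table's gene coordinates, 98.33% equal those of GENCODE M21 (GRCm38), and those of all 9 genes do. All count columns matched a sample's title (0 columns unused), and groups came from the labels.

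Counts were filtered with filterByExpr on age (minimum count 10, minimum total 15), scaled by TMM and fitted with edgeR 4.0.16 in R 4.3.3 (robust quasi-likelihood, sex and age as terms, Benjamini-Hochberg over 13129 genes). The 95% intervals use the t quantile of the fit. CPM are TMM-scaled, log2 CPM use a prior count of 2, and values per kilobase use the deposited gene length. A level of 0 was bounded at 3 counts, which is 0.119 to 0.542 CPM across libraries and covers counting error only. Exact two-sided permutation tests took all 462 splits into 6 and 5 libraries. DESeq2 1.42.0, limma 3.58.1 (voom with quality weights), other scalings, filters, terms, replicate blocks and library sets were alternatives. The scripts were tested on simulated data.

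The 9 genes, the gene lists and the tests were chosen with earlier results of these data known. The rule named all 9 genes, list genes with an adjusted p under 0.05, up to 4 per list with the smallest p as examples, and the 3 most alike protein-coding genes per member. Whether replicates came from separate animals is stated only as biologically independent, so p-values measure the spread between these libraries. Results on the receptors of these proteins other than Xcr1 are not reported here.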

Additional observations from a re-analysis of the deposited data

Results flagged for a closer look

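Within each age group, the highest and the lowest library of each of the 9 transcripts were compared with the rest by Dixon's gap ratio, in 18 groups. The ratio was taken on CPM, where high values stand apart more than on log2 CPM. Its limits flag about 1 in 20 groups by chance only if values are normally spread, which CPM need not be. The number of flags was therefore not set against chance. There were 6 values that stood apart on the CPM scale. Ccl3 was 29.1 CPM in young male 1, where the next young library held 14.9 CPM, and 61.0 CPM in middle-aged female 2, where the next middle-aged library held 14.3 CPM. Ifng was 31.4 CPM in young male 1, with the next at 8.94 CPM, and 28.3 CPM in middle-aged female 2, with the next at 6.84 CPM. Ccl5 was 1746 CPM in young female 1, with the next young library at 1239 CPM, and Xcl1 was 221 CPM in the same library, with the next at 114 CPM. These 6 values came from 3 of the 11 libraries.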

How the results depend on the processing

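The count of the 9 genes called for age (0) became 1 with DESeq2, which tested 8 of them, and 1 with limma voom, Ccl5 in both. Over all genes the count of 3 became 17 with a filter of at least 1 count in any library, 5 with 10 counts in every library, 112 with DESeq2, 138 with limma voom, 5 without the sex term, 0 in males alone, 0 in females alone and 6 over the libraries above 10000000 counts, with 1 to 4 when each library was left out. Ccl5 kept its direction in all 26 alternatives (0.76 to 1.76), with an adjusted p from 0.0140 to 1.00. Leaving out each library moved Ccl5 between 0.96 (without middle-aged male 1) and 1.40 (without middle-aged female 2), Ccl3 between -0.41 and 0.80, Ccl4 between -0.41 and 0.34, Ifng between -1.32 and 0.82, Xcl1 between 0.13 and 0.67, Tnf between 0.22 and 0.99, Lta between -0.037 and 0.20, Ltb between -0.66 and -0.02, and Il16 between -0.18 and 0.031. The exact permutation count of 1 became 1 to 2, Xcl1 joining without young female 1, and the replicate-number count of 3 became 3 to 4. The shares of all tested genes are not given for the permutation counts or for these replicate-number alternatives, so no weight is put on them. Mean log2 CPM differences moved with each library left out between -0.33 and 0.42 for Ccl3, -0.28 and 0.29 for Ccl4, -0.75 and 0.90 for Ifng, -0.085 and 0.13 for Lta, and -0.17 and 0.073 for Il16. Other signs that turned were Ccl4 with median-of-ratios (-0.012), upper-quartile (-0.041) and DESeq2 (-0.013) scaling, in males alone (-0.037) and, for mean log2 CPM, with library size alone (-0.0065). Ifng turned with limma voom (-0.015), without the sex term (-0.062) and in males alone (-1.12), Ccl3 in males alone (-0.50), Xcl1 in females alone (-0.084) and Ltb over the deep libraries (0.30). Without young male 1 and middle-aged female 2 together, an alternative chosen after seeing the data, Ccl3 was -0.11, Ccl4 -0.062, Ifng -0.76, Tnf -0.025, Lta -0.044 and Ltb 0.18. The cause was not tested for any of these. Ifng had no value with 10 counts in every library, and Ccl3 had no p from DESeq2.

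The replicate numbers were not shown to pair the libraries: correlations of the deviations of same-numbered young and middle-aged libraries ran from 0.03 to 0.43 over 5 pairs, against -0.51 to 0.37 for other pairs, and 7 of 10 libraries correlated best with their own number. With the replicate block within sex 2 genes were called, and with the block shared by both sexes 19, with none of the 9 among them under either block. The block turned Ccl4 to -0.10 in both forms, Il16 to 0.050 and 0.042, and Ifng to -0.40 with the shared block, and Ccl5 was 1.08 in both. Ltb was -0.46 within sex and -0.43 shared, with edgeR unadjusted p-values of 0.0161 and 0.00835 and adjusted ones of 0.693 and 0.364. Besides Ccl5 it was the only one of the 9 under an unadjusted 0.05. The share of all tested genes under that threshold in the block fits was not counted, so no weight is put on this count.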
